A study of Homo sapiens with 18 samples.

Results

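The 10 genes described here encode NRF2 (NFE2L2), the CNC factors that share its binding sites, their small MAF partners, and the proteins that set the stability of NRF2. They were chosen by name as NFE2L2, NFE2L1, BACH1, MAFF, MAFG, MAFK, KEAP1, CUL3, GSK3B and SQSTM1. All 10 had a gene row in each of the 3 tables, out of 20374 genes with a row in any table, and all 10 passed the filter on low levels in every line. The libraries came from 3 human lung cancer cell lines kept for 24 h with 5 µM CCS1477 (inobrodib), an inhibitor of the p300/CBP bromodomain, or with its solvent DMSO. The series text writes the dose as 5 mM and the sample descriptions as 5 µM, which is used here. Of these, H460 (large cell carcinoma) and H2023 (labelled squamous) are called NRF2-activated in the series text, and ABC-1 (labelled adenocarcinoma) is its only wildtype line. What activates NRF2 in them is not given in the sources used here. For each line there were 3 libraries with CCS1477 and 3 with DMSO, 18 in all. Whether replicates were separate cultures is not said in the labels, and the p-values cover no more than the scatter among these libraries, which can be technical.

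Depth per library, in recovered reads, was 26652298 to 33568182 for H460, 15352631 to 18261159 for H2023 and 14483979 to 17483292 for ABC-1. CCS1477 replicate 1 of H460 stood apart. Mitochondrial genes took 0.795% of its reads, compared with 1.77 to 2.06% in the other 5 from that line, and it differed from its fellow replicates by 38.0 to 41.9 times the counting noise (as squared differences), where all other replicate pairs gave 2.23 to 6.71 times. The changes of the 10 genes in H460 are therefore also given without it. Markers of the labelled tumour types were sparse. In H2023, 1 of 5 squamous markers had a row, TP63, at 0.420 CPM with CCS1477 and 1.84 CPM with DMSO. Of 5 adenocarcinoma and alveolar markers, 1 had a row in ABC-1, NKX2-1, at 0.624 CPM with CCS1477 and 1.34 CPM with DMSO. The epithelial keratin KRT8 was at 1202 CPM or more in the mean of every group. Of 5 epithelial markers, all fell in H2023, summing to 4473 to 4536 CPM with CCS1477 and 5452 to 5584 CPM with DMSO. In ABC-1, 3 of the 5 rose, summing to 8179 to 8227 CPM with CCS1477 and 5897 to 6359 CPM with DMSO. In H460, 1 of 3 tested rose, or 2 rose and 1 fell with CCS1477 replicate 1 left out, and the sums were 2793 to 3629 CPM with CCS1477 and 2472 to 2520 CPM with DMSO. Among 3 mesenchymal markers 2 rose in H2023 and 1 in H460, and 0 of 2 tested passed in ABC-1. SOX2, which is among the 5 squamous markers and had no row in H2023, was at 66.7 CPM in ABC-1 with CCS1477 and 149 CPM with DMSO. Over all genes tested, 28.2% rose and 27.9% fell in H460, 28.6% and 31.9% in H2023, and 33.5% and 32.6% in ABC-1. The marker counts read against these shares, taken with no library left out, and were not compared with them by a test. The part of these markers in the results was not tested.

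NRF2 activates antioxidant and detoxification genes as a heterodimer with a small MAF protein on antioxidant response elements. KEAP1, an adaptor of the CUL3 ubiquitin ligase, captures NRF2 for degradation and loses that hold when electrophiles modify its cysteines or when p62 (SQSTM1) binds in the place of NRF2. A second route runs through the kinase GSK3B, whose phosphorylation of NRF2 is read by the ligase adaptor beta-TrCP. BACH1 occupies the same elements as a repressor, again with a small MAF partner. Much of this control acts on protein, which RNA levels do not show.

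Across the 3 lines CCS1477 raised SQSTM1 and lowered KEAP1, while NFE2L2 itself and the small MAF genes MAFK and MAFF moved differently in ABC-1 from the other lines. The fall of KEAP1 in H460 did not pass at every setting. At an adjusted p of 0.05, 3 of the 10 genes passed in H460, beside 56.1% of all genes tested, with 1 higher (28.2% of all genes) and 2 lower (27.9%). In H2023, 7 passed, beside 60.6%, with 3 higher (28.6%) and 4 lower (31.9%). In ABC-1, 9 passed, beside 66.1%, with 7 higher (33.5%) and 2 lower (32.6%). On the deposited values the groups did not overlap for 4, 9 and 10 genes in H460, H2023 and ABC-1, beside 64.0%, 65.2% and 70.4% of all genes tested. The share called among the 10 was thus below that of all genes in H460 and above it in ABC-1. In H2023 it was close to that of all genes, with 6 to 8 called when single libraries were left out. These comparisons were not tested. The median absolute log2 change of the 10 genes was 0.10, 0.29 and 0.41 in H460, H2023 and ABC-1, against 0.28, 0.31 and 0.36 over all genes tested. In bulk RNA, a changed mix of cells and a changed amount of RNA per cell cannot be told apart.

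**Figure D1:**
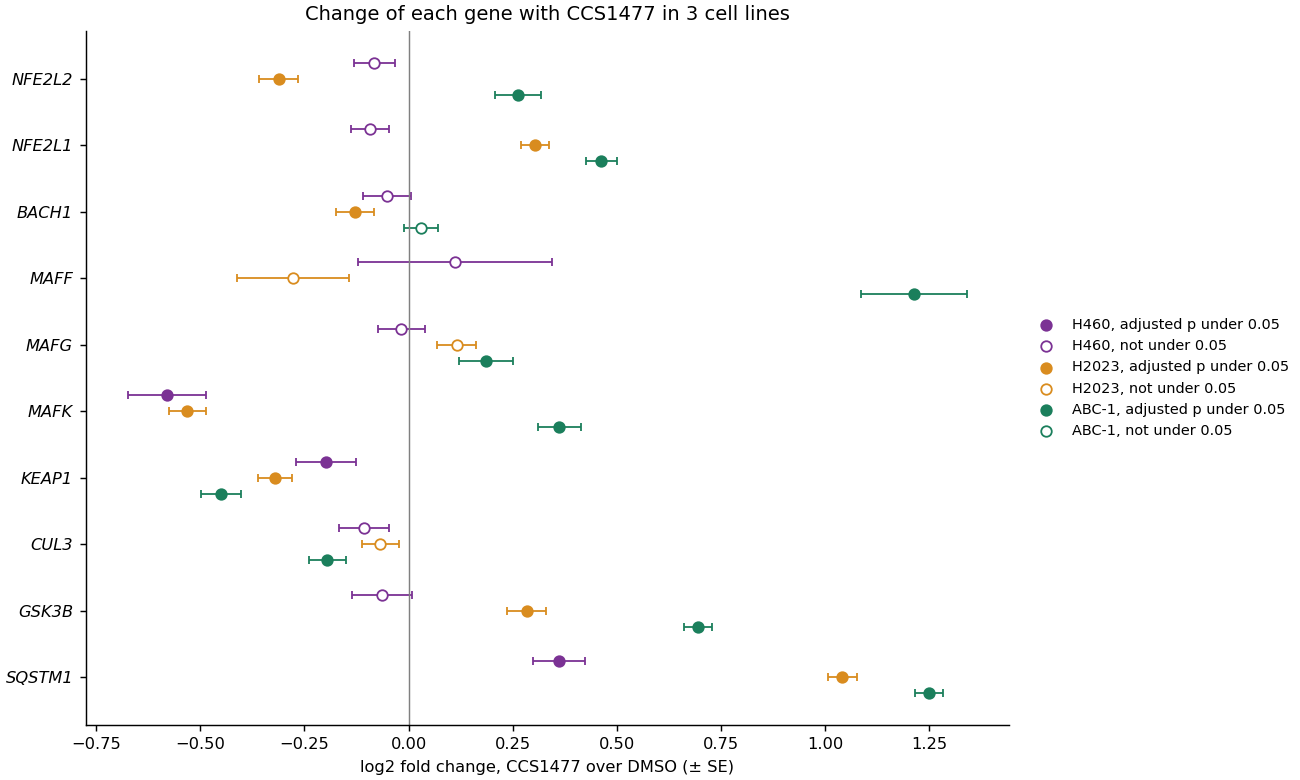
Log2 fold change of CCS1477 over DMSO for the 10 genes (x axis, limma, bars ± SE) in H460, H2023 and ABC-1, with filled points for an adjusted p under 0.05 and open points for the others. SQSTM1 lies right of 0 and KEAP1 left of 0 in all 3 lines, while MAFK is at -0.58 (H460), -0.53 (H2023) and 0.36 (ABC-1).

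NFE2L2 (ENSG00000116044, chr2:177227595-177392697, minus strand, GRCh38) had 117, 129 and 125 CPM in H460 with CCS1477, against 126, 119 and 128 CPM with DMSO. The libraries of H460 overlapped, and the log2 fold change was -0.08 ± 0.05 (± SE throughout, adjusted p = 0.192, limma), or -0.04 with CCS1477 replicate 1 left out. In H2023 the gene had 139, 131 and 121 CPM with CCS1477, against 155, 157 and 157 CPM with DMSO. Every treated library of H2023 lay below every DMSO library, with a log2 change of -0.31 ± 0.05 (adjusted p = 1.77e-04). In ABC-1 it had 121, 125 and 123 CPM with CCS1477, against 96.4, 106 and 93.1 CPM with DMSO. Here all treated libraries were the higher ones (0.26 ± 0.06, adjusted p = 0.00146). The level of NFE2L2 RNA in treated cells was therefore close in the 3 lines, at means of 124, 131 and 123 CPM, whereas the DMSO means were 124, 156 and 98.5 CPM.

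NFE2L1 (ENSG00000082641, chr17:48048329-48061487, plus strand) encodes the CNC factor NRF1, which sits in the endoplasmic reticulum and drives proteasome genes once released. It had 298, 293 and 287 CPM in H2023 with CCS1477, against 226, 234 and 227 CPM with DMSO, and 252, 255 and 266 CPM in ABC-1 with CCS1477, against 175, 181 and 182 CPM with DMSO. It rose in both lines without overlap of the groups (0.30 ± 0.03, adjusted p = 2.02e-05 in H2023; 0.46 ± 0.04, adjusted p = 8.29e-07 in ABC-1). In H460 the values overlapped, at 222, 216 and 202 CPM with CCS1477 and 209.7, 222 and 218 CPM with DMSO (-0.09 ± 0.05, adjusted p = 0.113). Without CCS1477 replicate 1 the H460 change became -0.12 (adjusted p = 0.0345), and it also passed with transcript rows added to genes (-0.11, adjusted p = 0.0473) and in one fit over 18 libraries (adjusted p = 0.0439). In H2023 NFE2L1 and NFE2L2 thus moved in opposite directions, and in ABC-1 in the same one.

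BACH1 (ENSG00000156273, chr21:29194071-29630751, plus strand), the repressor, changed least of the 3 CNC genes. In H2023 it had 95.7, 89.2 and 91.2 CPM with CCS1477, against 99.0, 99.8 and 92.4 CPM with DMSO, and its log2 change of -0.13 ± 0.05 passed the threshold (adjusted p = 0.0297). The CPM of the groups overlapped. That call was lost when library totals set the scaling (-0.08, adjusted p = 0.162) and without CCS1477 replicate 2 or 3 or DMSO replicate 1 or 2 of H2023 (adjusted p = 0.0650 to 0.105). In H460 the means were 37.9 ± 1.76 CPM with CCS1477 and 37.3 ± 1.67 CPM with DMSO (SD, n = 3 in each group here and below; -0.05 ± 0.06, adjusted p = 0.463), and the change was -0.02 with CCS1477 replicate 1 left out. In ABC-1 they were 60.9 ± 0.812 and 57.3 ± 0.910 CPM (0.03 ± 0.04, adjusted p = 0.547).

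**Figure D2:**
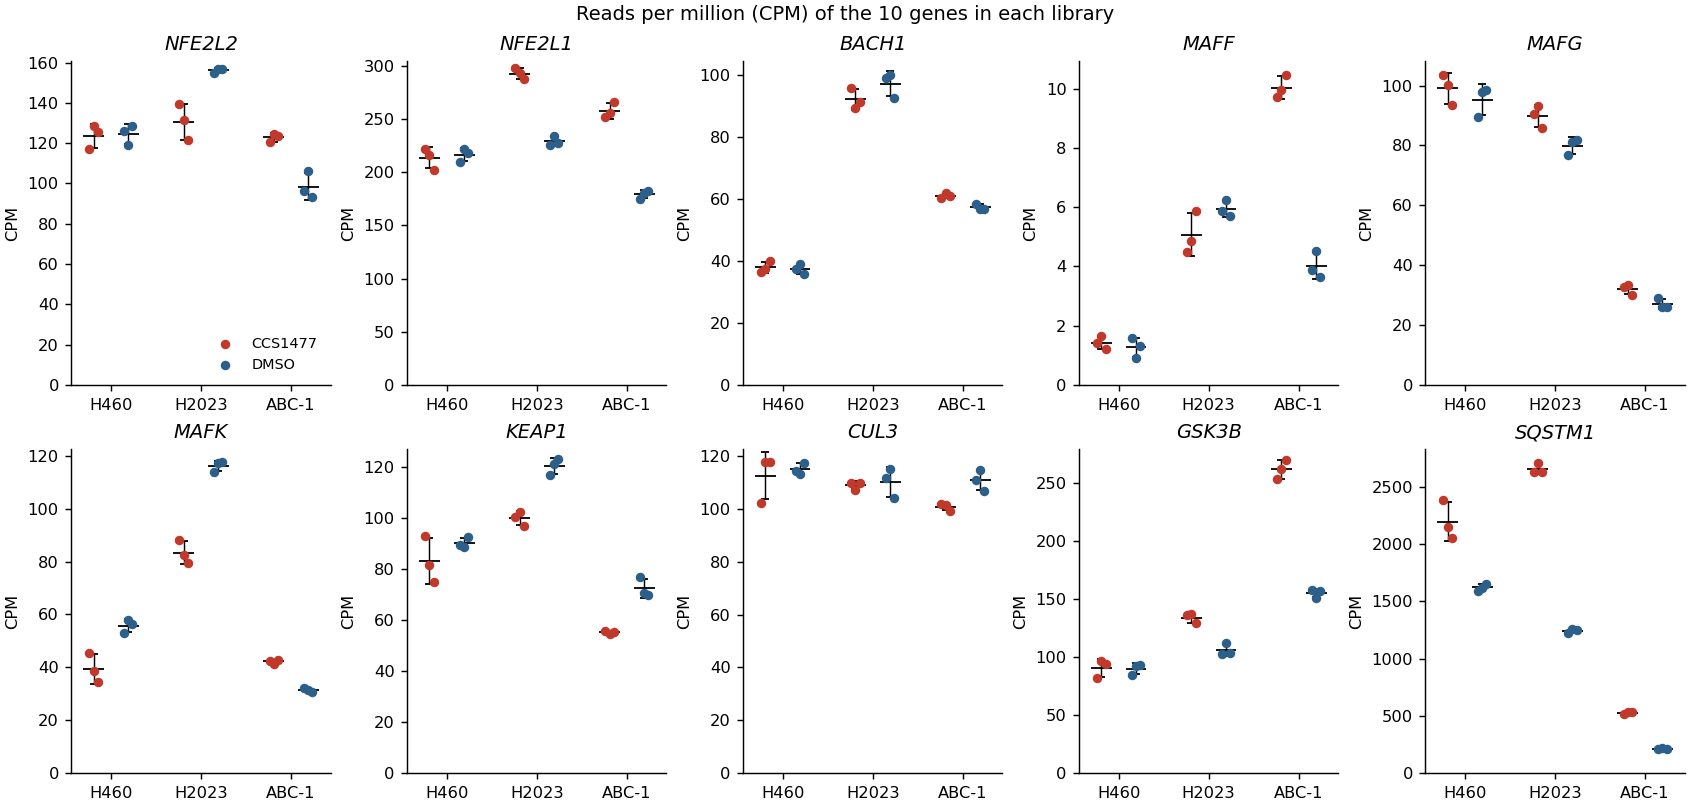
Level (CPM, linear y axis from 0) of each of the 10 genes in the 18 libraries, with CCS1477 in red left of DMSO in blue for each line, the mean as a horizontal line and the SD as a bar. NFE2L2 in treated cells lies between 117 and 139 CPM in all 3 lines, and SQSTM1 is higher with CCS1477 than with DMSO in every line.

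The small MAF genes MAFF, MAFG and MAFK encode short bZIP proteins that lack an activation domain and serve as obligate partners of NRF2, NRF1 and BACH1. MAFF (ENSG00000185022, chr22:38200767-38216511, plus strand) was the least abundant. It had 9.72, 9.95 and 10.5 CPM in ABC-1 with CCS1477, against 3.89, 4.54 and 3.66 CPM with DMSO, from 167 to 170 and 53 to 71 reads. The ratio of the means was 2.49, and the log2 change was 1.21 ± 0.13 (adjusted p = 6.65e-06). In H2023 it had 4.49, 4.85 and 5.88 CPM with CCS1477, against 5.89, 6.24 and 5.72 CPM with DMSO (-0.28 ± 0.13, adjusted p = 0.0983). In H460 it was at 1.43 ± 0.214 CPM with CCS1477 and 1.27 ± 0.334 CPM with DMSO, from 25 to 50 reads a library (0.11 ± 0.23, adjusted p = 0.707), and without DMSO replicate 2 of H460 the change was -0.08. With CCS1477 replicate 1 left out it stayed at 0.11. MAFF thus rose in ABC-1, and in the other lines its change was not separated from 0. Without CCS1477 replicate 3 of H2023 its value there was -0.39 (adjusted p = 0.0377).

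The promoter of MAFF is shown because it held the most kinds of motif among the windows searched. RefSeq windows (GRCh38.p14, 250 bases before to 50 after a start) were at hand for 9 of the 10 genes, 18 windows in all, and none for MAFK. They were searched on both strands for the core of the antioxidant response element (TGACNNNGC), the AP-1 site TGANTCA, the cAMP response element TGACGTCA, the E-box CACGTG and the GC box GGGCGG. Matches occurred in 13.3, 7.71, 1.85, 7.26 and 45.0% of all 35116 windows of that length. Capitals mark every match, and the window with the most matches is printed. For MAFF that window, chr22:38201744-38202043 (plus strand), held 1 E-box, 1 antioxidant response core that overlaps a GC box, 1 cAMP response element 54 bases before the start, and 4 GC boxes.
MAFF promoter: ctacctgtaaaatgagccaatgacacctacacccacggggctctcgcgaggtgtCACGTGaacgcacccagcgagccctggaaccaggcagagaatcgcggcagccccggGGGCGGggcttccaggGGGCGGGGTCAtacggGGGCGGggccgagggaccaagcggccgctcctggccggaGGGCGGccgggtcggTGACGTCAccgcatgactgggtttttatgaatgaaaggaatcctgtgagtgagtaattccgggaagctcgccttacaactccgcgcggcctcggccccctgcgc
A second start of MAFF and the start of MAFG held an E-box, and 1 of the BACH1 windows an AP-1 site. Neither window of NFE2L2 matched any of these but the GC box. A match is a string of letters and not a measured site.

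MAFK (ENSG00000198517, chr7:1530714-1543043, plus strand) had 45.4, 38.5 and 34.3 CPM in H460 with CCS1477, against 53.0, 57.8 and 56.3 CPM with DMSO. In H2023 it had 88.1, 82.4 and 79.7 CPM with CCS1477, against 114, 117 and 118 CPM with DMSO. Treated libraries were lower throughout in both lines (-0.58 ± 0.09, adjusted p = 0.00111 in H460; -0.53 ± 0.04, adjusted p = 2.01e-06 in H2023). Without CCS1477 replicate 1 of H460, the highest treated value, the H460 change was -0.69 (adjusted p = 2.82e-05). In ABC-1 the order turned, with 42.5, 41.4 and 42.7 CPM under CCS1477, against 32.3, 31.3 and 30.8 CPM under DMSO (0.36 ± 0.05, adjusted p = 8.38e-05).

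MAFG (ENSG00000197063, chr17:81918270-81927714, minus strand) changed little. In ABC-1 it had 32.6, 33.4 and 30.1 CPM with CCS1477, against 29.0, 25.9 and 26.1 CPM with DMSO. The groups did not overlap, and the log2 change was 0.19 ± 0.07 (adjusted p = 0.0259). This call ended without CCS1477 replicate 1 or 2 or DMSO replicate 2 or 3 of ABC-1 (adjusted p = 0.0636 to 0.0881). In H2023 the means were 89.8 ± 3.65 CPM with CCS1477 and 80.0 ± 2.73 CPM with DMSO (0.12 ± 0.05, adjusted p = 0.0522), and without CCS1477 replicate 3 the adjusted p was 0.0308. Scaling by relative log expression (0.12, adjusted p = 0.0298) or library totals (0.17, adjusted p = 0.00774), 1 CPM required in all libraries (adjusted p = 0.0466) or transcript rows added to genes (adjusted p = 0.0351) also brought it past the threshold. In H460 the change was -0.02 ± 0.06 (adjusted p = 0.813), or -0.05 with CCS1477 replicate 1 left out, and its sign turned with scaling by library totals (0.06) and without CCS1477 replicate 3 or DMSO replicate 2 or 3 of H460 (0.0212, 0.00513 and 0.00883).

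Since each small MAF protein can fill the same place in the dimer, their proportions were compared within each library as CPM per kilobase of exon. MAFG made up 67.7 ± 1.98% of the summed level in H460 with CCS1477, against 58.9 ± 0.537% with DMSO. In H2023 it made up 46.7 ± 1.13% with CCS1477, against 36.1 ± 0.419% with DMSO. The share of MAFK was correspondingly lower, at 31.4% against 40.3% in H460 and 50.8% against 61.4% in H2023, with no overlap between libraries of the 2 groups. In ABC-1 the share of MAFK was 54.4 ± 1.25% with CCS1477 and 54.5 ± 0.724% with DMSO, while MAFF made up 10.3 ± 0.484% against 5.55 ± 0.669%. MAFG there took a lower share, 35.3 ± 1.63% with CCS1477 against 39.9 ± 1.20% with DMSO, without overlap. The summed level was 36.8 ± 1.31 CPM per kilobase with CCS1477 and 42.5 ± 0.963 with DMSO in H2023, and 17.4 ± 0.161 and 12.9 ± 0.485 in ABC-1. In H460 it was 28.1 ± 2.23 and 31.0 ± 1.47, and the libraries overlapped. These shares, and how they change with CCS1477, rest on the length used. Per kilobase of the principal transcript, MAFF, MAFG and MAFK in ABC-1 averaged 4.03, 6.35 and 12.5 CPM with CCS1477. With DMSO they averaged 1.62, 5.35 and 9.34 CPM, so the near-equal shares of MAFK there hold for exon length only. These proportions are descriptions without a test.

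**Figure D3:**
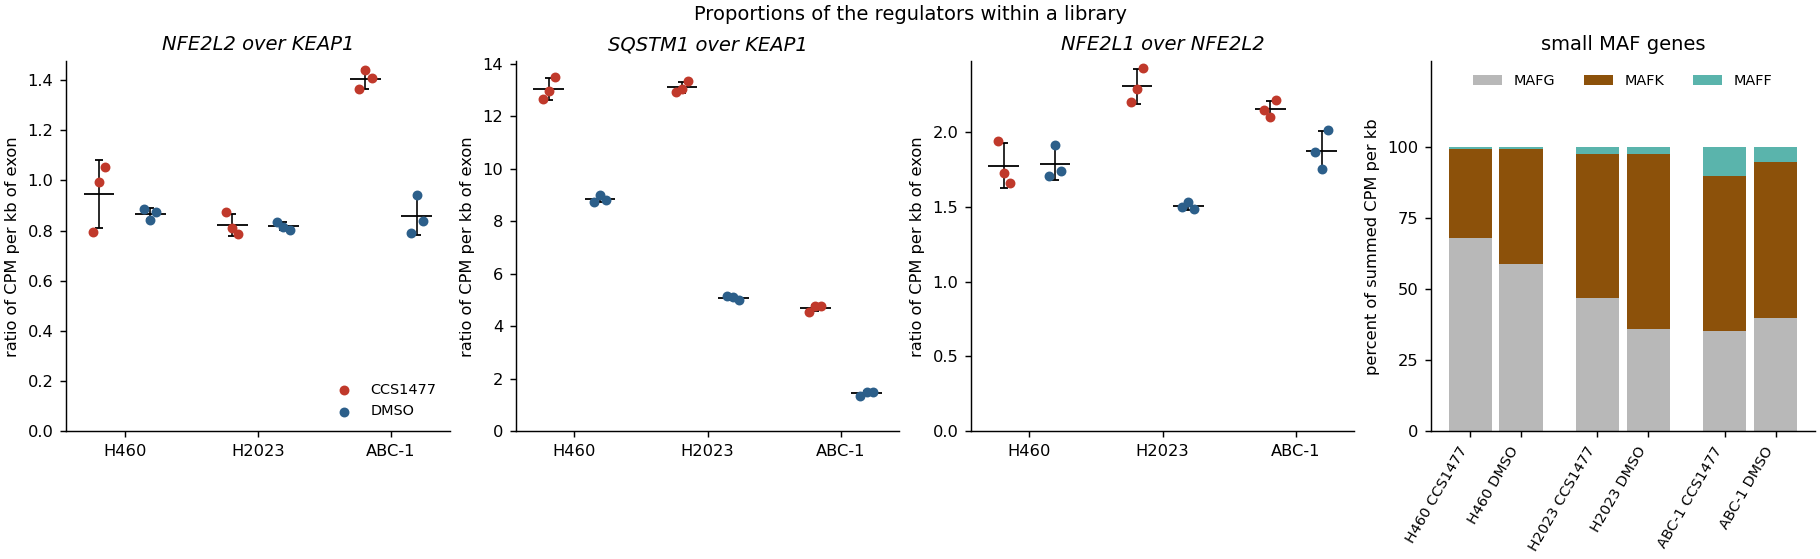
Ratios of CPM per kilobase of exon within each library (first 3 panels, points are libraries, lines means, bars SD, CCS1477 in red left of DMSO in blue) and mean share of MAFG, MAFK and MAFF in their summed level (stacked bars). The ratio of SQSTM1 to KEAP1 is higher with CCS1477 in every line, that of NFE2L2 to KEAP1 is 1.40 with CCS1477 and 0.858 with DMSO in ABC-1, and MAFG takes a larger share with CCS1477 in H460 and H2023 and a smaller one in ABC-1.

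KEAP1 (ENSG00000079999, chr19:10486120-10503741, minus strand) fell in every line at the main settings. In ABC-1 it had 55.6, 54.5 and 55.1 CPM with CCS1477, against 76.6, 70.7 and 69.7 CPM with DMSO (-0.45 ± 0.05, adjusted p = 6.85e-06). In H2023 it had 100.4, 102 and 96.9 CPM with CCS1477, against 117, 121 and 123 CPM with DMSO (-0.32 ± 0.04, adjusted p = 4.53e-05). In both lines every treated library was below every DMSO library. In H460 it had 92.7, 81.5 and 74.9 CPM with CCS1477, against 89.4, 88.7 and 92.4 CPM with DMSO. The highest of these values was that of CCS1477 replicate 1, so that the CPM overlapped, although the deposited values did not. The log2 change was -0.20 ± 0.07 (adjusted p = 0.0454), and -0.28 without that library (adjusted p = 8.22e-04). This call was lost when library totals set the scaling (-0.12, adjusted p = 0.180), with limma-voom (adjusted p = 0.0504) and with no filter (adjusted p = 0.0519). It ended as well when any 1 of the other 5 libraries was left out (adjusted p = 0.0884 to 0.131).

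For KEAP1 the window with the most matches is printed, chr19:10502722-10503021 (minus strand). It held 2 antioxidant response cores, 54 and 31 bases before the start, and 3 GC boxes, while the other KEAP1 window matched only the GC box.
KEAP1 promoter: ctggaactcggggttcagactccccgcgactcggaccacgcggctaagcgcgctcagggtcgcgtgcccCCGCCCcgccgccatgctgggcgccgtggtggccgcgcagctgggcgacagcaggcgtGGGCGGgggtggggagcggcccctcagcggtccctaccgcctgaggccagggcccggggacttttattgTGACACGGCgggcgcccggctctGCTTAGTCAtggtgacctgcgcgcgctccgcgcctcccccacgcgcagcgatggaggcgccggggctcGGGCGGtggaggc
Of the 9 genes with a window, only KEAP1 and MAFF held an antioxidant response core, in 2 of the 18 windows, and MAFK could not be searched.

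CUL3 (ENSG00000036257, chr2:224470150-224585397, minus strand), the scaffold of the KEAP1 ligase, had 102, 102 and 99.3 CPM in ABC-1 with CCS1477, against 111, 115 and 107 CPM with DMSO. It fell slightly there, without overlap (-0.19 ± 0.04, adjusted p = 0.00224). In H460 its means were 113 ± 8.98 CPM with CCS1477 and 115 ± 2.30 CPM with DMSO (-0.11 ± 0.06, adjusted p = 0.167), and the change was -0.04 with CCS1477 replicate 1 left out. In H2023 they were 109 ± 1.50 and 110.3 ± 5.55 CPM (-0.07 ± 0.04, adjusted p = 0.214).

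GSK3B (ENSG00000082701, chr3:119821323-120094417, minus strand) rose in 2 lines. In ABC-1 it had 253, 262 and 269 CPM with CCS1477, against 157, 151 and 157 CPM with DMSO, and the lowest treated value was well above the highest DMSO value (0.69 ± 0.03, adjusted p = 1.28e-08). In H2023 it had 136, 136 and 129 CPM with CCS1477, against 103, 112 and 103 CPM with DMSO (0.28 ± 0.05, adjusted p = 3.54e-04), again without overlap. In H460 the values were 81.8, 96.1 and 93.8 CPM with CCS1477 and 84.3, 92.4 and 93.0 CPM with DMSO, which overlapped (-0.06 ± 0.07, adjusted p = 0.470). The sign in H460 turned with scaling by library totals and without CCS1477 replicate 1, to 0.00883 and 0.00903.

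SQSTM1 (ENSG00000161011, chr5:179806398-179838078, plus strand) encodes p62, the autophagy receptor that binds KEAP1. It had 516, 530.0 and 533 CPM in ABC-1 with CCS1477, against 213, 214 and 211 CPM with DMSO, a ratio of means of 2.48 (log2 change 1.25 ± 0.03, adjusted p = 1.43e-10). In H460 it had 2386, 2150.3 and 2055 CPM with CCS1477, against 1589.9, 1622 and 1656 CPM with DMSO, a ratio of 1.35 (0.36 ± 0.06, adjusted p = 0.00146). Without CCS1477 replicate 1, the highest treated value, the H460 change was 0.30 (adjusted p = 2.06e-04). In H2023, where the treated libraries held 2631 to 2707 CPM and the DMSO libraries 1227 to 1257 CPM, the ratio was 2.13. Groups did not overlap in any line. The treated level in ABC-1 stayed below the DMSO level of the other 2 lines. Of its RefSeq windows the one with the most matches, chr5:179820655-179820954 (plus strand), held 4 GC boxes and none of the other 4 motifs. It is printed because this gene had the highest fitted log2 change of the 10 in each line.
SQSTM1 promoter: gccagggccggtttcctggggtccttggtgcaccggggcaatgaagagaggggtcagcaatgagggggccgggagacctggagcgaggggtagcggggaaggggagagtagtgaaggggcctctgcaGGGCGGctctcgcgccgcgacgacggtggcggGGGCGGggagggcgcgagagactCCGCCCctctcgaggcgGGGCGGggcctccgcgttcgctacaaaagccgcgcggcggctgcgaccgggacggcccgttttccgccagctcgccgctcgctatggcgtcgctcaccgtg

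Set against KEAP1 in the same library, the per-kilobase level of SQSTM1 was 13.0 ± 0.425 times that of KEAP1 with CCS1477 in H460, against 8.84 ± 0.127 with DMSO. In H2023 the ratio was 13.1 ± 0.223 with CCS1477, against 5.09 ± 0.0774 with DMSO. In ABC-1 it was 4.70 ± 0.121 with CCS1477, against 1.45 ± 0.0724 with DMSO. The libraries did not overlap in any line. The ratio of NFE2L2 to KEAP1 was 1.40 ± 0.0381 with CCS1477 and 0.858 ± 0.0775 with DMSO in ABC-1, also without overlap. It was 0.823 ± 0.0440 and 0.817 ± 0.0156 in H2023, and 0.947 ± 0.135 and 0.868 ± 0.0222 in H460, where the libraries overlapped. Without CCS1477 replicate 1 of H460 the treated ratios, 0.993 and 1.05, lay above the DMSO ratios of 0.843 to 0.886. In H2023 both genes of that ratio fell, and by similar amounts. The ratio of NFE2L1 to NFE2L2 was 2.30 ± 0.115 with CCS1477 and 1.50 ± 0.0231 with DMSO in H2023, and 2.15 ± 0.0569 and 1.88 ± 0.131 in ABC-1, without overlap in either. In H460 it was 1.78 ± 0.148 and 1.79 ± 0.109, with overlap. The size of these ratios, though not their relative change with CCS1477, rests on the length used. Per kilobase of the principal transcript, NFE2L2 over KEAP1 in ABC-1 was 2.31 with CCS1477 and 1.41 with DMSO, and SQSTM1 over KEAP1 in H460 was 26.3 with CCS1477 and 17.8 with DMSO.

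Levels in DMSO libraries differed between lines for 9 of the 10 genes by more than their spread, in the sense that the libraries of neighbouring lines did not overlap, beside 62.2% of the genes tested in every line. The tables were normalized separately, so these levels are CPM of recovered reads, set side by side with no test. SQSTM1, the gene with the widest gap, had 1623 ± 33.3 CPM (H460), 1246 ± 16.7 CPM (H2023) and 212 ± 1.49 CPM (ABC-1). MAFG was at 95.3 ± 5.17, 80.0 ± 2.73 and 27.0 ± 1.73 CPM in the same order. KEAP1, which was also highest in the NRF2-activated lines, was at 90.2 ± 1.94, 120.2 ± 3.18 and 72.3 ± 3.77 CPM. MAFK was at 55.7 ± 2.46, 116 ± 1.94 and 31.5 ± 0.765 CPM. In all, 6 genes (NFE2L2, NFE2L1, MAFG, MAFK, KEAP1 and SQSTM1) were higher in every library of H460 and H2023 than in every ABC-1 library, beside 29.0% of the genes tested in every line. ABC-1 is the only wildtype line and differs in labelled tumour type too, so NRF2 status cannot be told apart from cell line or tumour type. MAFF was at 1.27, 5.95 and 4.03 CPM in H460, H2023 and ABC-1, and BACH1 at 37.3, 97.1 and 57.3 CPM. GSK3B was highest in ABC-1, at 155 ± 3.54 CPM, against 106 ± 5.26 in H2023 and 89.9 ± 4.85 in H460. CUL3 had 115 ± 2.30 CPM (H460), 110.3 ± 5.55 CPM (H2023) and 111 ± 3.87 CPM (ABC-1), and its libraries overlapped.

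Per kilobase of exon, SQSTM1 was the highest of the 10 genes in DMSO libraries of H460 and H2023, at 212 and 163 CPM per kilobase, and MAFF the lowest in every line. In DMSO libraries of ABC-1, NFE2L1 was at 30.8 and SQSTM1 at 27.8 CPM per kilobase. That order rests on the length used. Per kilobase of the principal transcript, GSK3B came first in ABC-1 at 94.7, followed by SQSTM1 at 71.2 and NFE2L1 at 37.6.

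To ask whether a change differed from line to line, a single limma fit took in all 18 libraries and the 11757 genes tested in every line. For H460 minus ABC-1, 8 of the 10 genes passed, beside 50.6% of all genes. For H2023 minus ABC-1, 6 passed, beside 44.8%, and for H460 minus H2023, 4 passed, beside 30.3%. In both comparisons with ABC-1 the lowest value was that of MAFF, followed by MAFK. The difference for MAFK was -0.94 (95% interval -1.15 to -0.73, adjusted p = 3.89e-07) for H460 minus ABC-1 and -0.89 (-1.10 to -0.68, adjusted p = 9.57e-07) for H2023 minus ABC-1. Between H460 and H2023 it was -0.05 (-0.26 to 0.16, adjusted p = 0.752), so the fall of MAFK was not separated between the NRF2-activated lines. Without CCS1477 replicate 3 of H460 that difference was 0.04. For KEAP1 the difference was 0.25 (0.08 to 0.42, adjusted p = 0.0144) for H460 minus ABC-1, and 0.13 (-0.04 to 0.30, adjusted p = 0.207) for H2023 minus ABC-1. The 3 comparisons share libraries, so their values are not independent of one another. With ABC-1 as the only wildtype line, NRF2 status and cell line cannot be told apart in them.

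**Figure D4:**
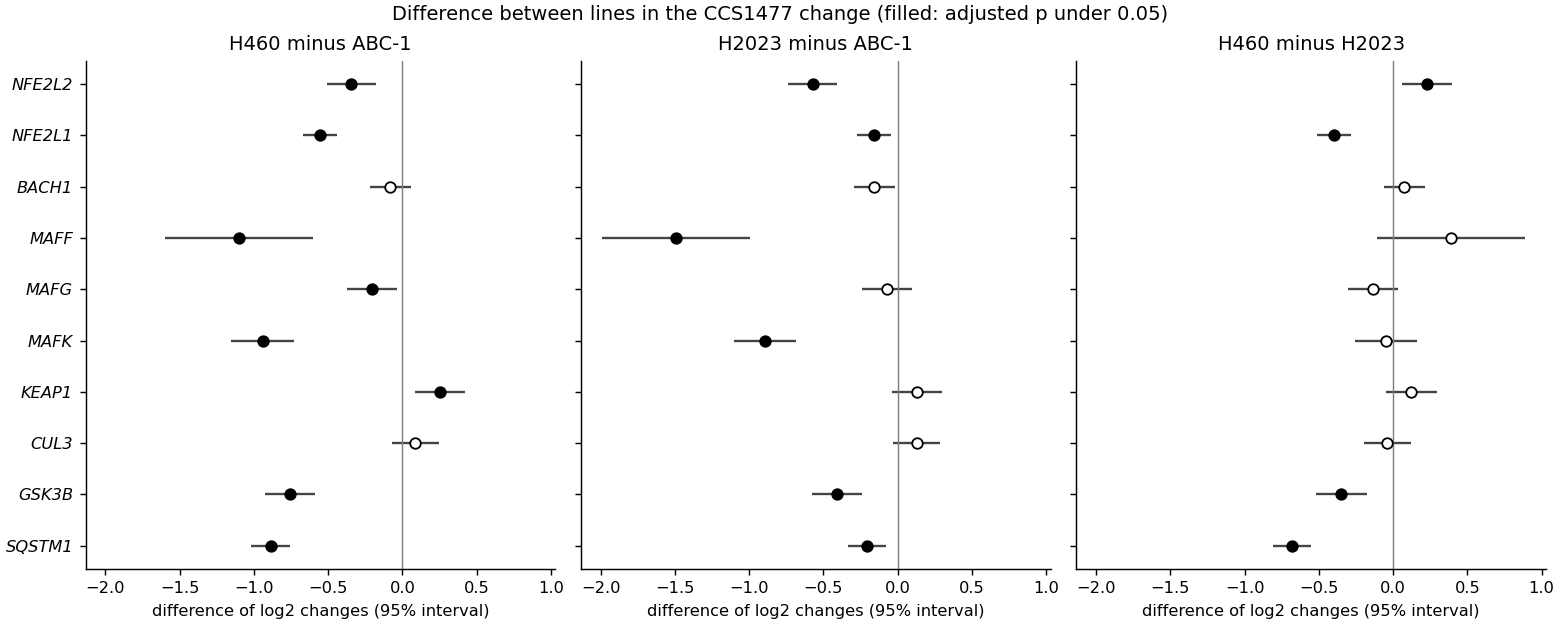
Difference between lines in the log2 change with CCS1477 (x axis, points with 95% intervals from one fit over 18 libraries, filled for an adjusted p under 0.05) for the 10 genes. MAFF and MAFK lie left of 0 in both panels set against ABC-1, and the intervals of MAFK, KEAP1, CUL3, BACH1, MAFG and MAFF include 0 in the panel of H460 minus H2023.

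The tables also held rows for single transcripts. For the 10 genes there were 30, 32 and 25 such rows (H460, H2023, ABC-1), of which 14, 13 and 10 passed the filter. In H2023, 2 passed an adjusted p of 0.05, beside 3.10% of all transcript rows tested. None passed in H460 or ABC-1, beside 4.05 and 6.98%. There 4 and 2 had an unadjusted p under 0.05 in limma, the only tool run on these rows. The share of all transcript rows at that unadjusted p was not computed, so these counts are not read as a result. Those of H460 include ENST00000454323 of CUL3, with 121, 47 and 48 reads with CCS1477 and none with DMSO. It met the filter through the treated libraries alone. ENST00000466342 of SQSTM1, annotated as a retained intron, had 1228, 1391 and 1380 reads in H2023 with CCS1477, against 482, 586 and 422 reads with DMSO (1.47 ± 0.09, adjusted p = 0.00281). ENST00000403150 of MAFK, annotated for nonsense-mediated decay, had 114, 127 and 119 reads in H2023 with CCS1477, against 213, 212 and 174 reads with DMSO (-0.67 ± 0.10, adjusted p = 0.0299). Both moved in the direction of their gene row.

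Reads can be shared with overlapping genes, since the sources used here do not say whether counting used strand. In GENCODE 29 the exons of MAFK overlap TMEM184A on the other strand by 809 bases, those of SQSTM1 overlap MRNIP by 1582 and MGAT4B by 105, and those of CUL3 overlap AC073052.2 by 598. NFE2L2 overlaps AC019080.1 on the same strand by 1054 bases, MAFG overlaps SIRT7 on the same strand by 105, and BACH1 overlaps LINC00189 on the same strand by 302. On the other strand NFE2L1 overlaps AC004477.2 by 192 bases and MAFG overlaps AC145207.8 by 224. NFE2L2 overlaps AC079305.1 by 190 and AGPS by 54 on that strand, and BACH1 overlaps GRIK1 by 45. No gene of another symbol overlaps the exons of KEAP1, MAFF or GSK3B there.

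Other genes of the pathway were read from 7 lists with 59 genes. Without CCS1477 replicate 1 of H460, an alternative chosen after seeing the data, 35 of the 39 list genes called in that line passed again with the same sign, as did 91.4% of all genes called there. The 4 others, named after their values were seen, were PALB2, RBX1, UBA3 and SYVN1. Every list count reads against the shares of all genes tested, which were 28.2% higher and 27.9% lower in H460, 28.6% and 31.9% in H2023, and 33.5% and 32.6% in ABC-1. In the list of KEAP1-binding competitors and autophagy receptors, 4 of 10 genes rose and 3 fell in H460, and 6 rose and 3 fell in both H2023 and ABC-1. The H460 counts were 4 and 2 without CCS1477 replicate 1 of that line. DPP3, a peptidase that can displace NRF2 from KEAP1, rose to 67.9 CPM in H460 with CCS1477, against 37.3 CPM with DMSO (0.79 ± 0.07, adjusted p = 6.61e-05). It rose in H2023 (0.80 ± 0.04) and in ABC-1 (1.20 ± 0.08) as well. OPTN, an autophagy receptor, rose in H460 (1.55 ± 0.12) and H2023 (0.87 ± 0.08), with 0.12 ± 0.06 in ABC-1 (adjusted p = 0.124), and the receptor CALCOCO2 rose in all 3 lines (0.40, 0.26 and 0.79). AMER1 (WTX), which binds KEAP1, fell in all 3 (-0.66, -0.79 and -0.65), as did PALB2, a BRCA2 partner with a KEAP1-binding motif (-0.15, -0.69 and -0.71). The median log2 change of the list was -0.01, 0.24 and 0.18 in the same lines, against medians of 0.00, -0.01 and 0.01 over all genes tested.

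In the list of cullin-RING ligase and neddylation genes, 2 rose and 5 fell of 8 in H460, and 1 rose and 4 fell in both H2023 and ABC-1. UBE2M, the NEDD8-conjugating enzyme, fell in each line (-0.36 ± 0.04, -0.35 ± 0.03 and -0.15 ± 0.04), and so did COPS5, the subunit that removes NEDD8 from cullins (-0.15, -0.39 and -0.16). In the GSK3 and beta-TrCP list, 2 rose and 1 fell of 8 in H460, 6 rose and 1 fell in H2023, and 4 rose and 2 fell in ABC-1. Without CCS1477 replicate 1 of H460 the counts in that line were 4 and 1 here, and 2 and 4 in the cullin-RING list. AKT1, a kinase that inhibits GSK3, rose in all lines (0.35, 0.37 and 0.24), and AKT2 fell in all (-0.64, -0.56 and -0.74).

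For NFE2L1 the list of processing and turnover genes had 3 genes higher and 2 lower of 6 in H460, 4 and 1 in H2023, and 3 and 1 in ABC-1. With CCS1477 replicate 1 of H460 left out, the counts in that line were 2 and 2. VCP, the ATPase that pulls NRF1 out of the endoplasmic reticulum, rose to 609, 600 and 550 CPM in treated H460, H2023 and ABC-1, against 351, 384 and 349 CPM with DMSO (0.72, 0.59 and 0.60). DDI2, the protease that cleaves NRF1 into its active form, fell (-0.21, -0.23 and -0.68). In the list of coactivators and Neh7 binders, 3 rose and 2 fell of 7 in H460, 1 and 3 in H2023, and 2 and 2 in ABC-1. RXRA, a nuclear receptor that binds the Neh7 domain of NRF2 and represses it, fell in each line, most in ABC-1 at 50.8 CPM with CCS1477 and 143 CPM with DMSO (-0.57 ± 0.08, -0.83 ± 0.05 and -1.55 ± 0.05).

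Among CNC, BACH and large MAF relatives most genes were below the filter, with 1, 2 and 4 of 7 tested in H460, H2023 and ABC-1. NFE2L3, the CNC factor NRF3, fell in each line (-1.14 ± 0.21, -0.62 ± 0.15 and -0.61 ± 0.11). The large MAF gene MAFA had 2.84 CPM in H2023 with CCS1477, against 0.256 CPM with DMSO, and 1.52 against 0.129 CPM in ABC-1. It met the filter there through the treated libraries alone, so that its passing the test there is not counted as a result, and at 0.555 CPM with CCS1477 and 0.0976 CPM with DMSO it was not tested in H460. Of 13 classical NRF2 target genes, 6 rose and 5 fell in H460, 5 and 3 of 13 in H2023, and 6 and 3 of 11 tested in ABC-1, with medians of 0.04, -0.04 and 0.73. With CCS1477 replicate 1 of H460 left out, 6 rose and 6 fell in that line. TXNRD1, thioredoxin reductase, rose to 757 CPM in ABC-1 with CCS1477, against 277 CPM with DMSO (1.39 ± 0.04), and it rose in H460 (0.52 ± 0.05) and H2023 (0.49 ± 0.04) too. SRXN1, sulfiredoxin, rose in ABC-1 as well (1.23 ± 0.05), and OSGIN1 rose in H2023 (1.20 ± 0.04). The drug transporter gene ABCC2 fell to 52.5 CPM in H460 with CCS1477, against 249 CPM with DMSO (-2.32 ± 0.05), and fell in H2023 (-1.17 ± 0.04). AKR1B10, an aldo-keto reductase, fell in both (-0.89 ± 0.05 and -1.58 ± 0.03). Of the 3 lower targets in ABC-1, ABCC2 and ME1 averaged 0.795 and 0.652 CPM with CCS1477, against 1.50 and 4.07 CPM with DMSO, so that it was the DMSO libraries that brought them past the filter. These targets were known from earlier results of these data when the list was drawn up.

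**Figure D5:**
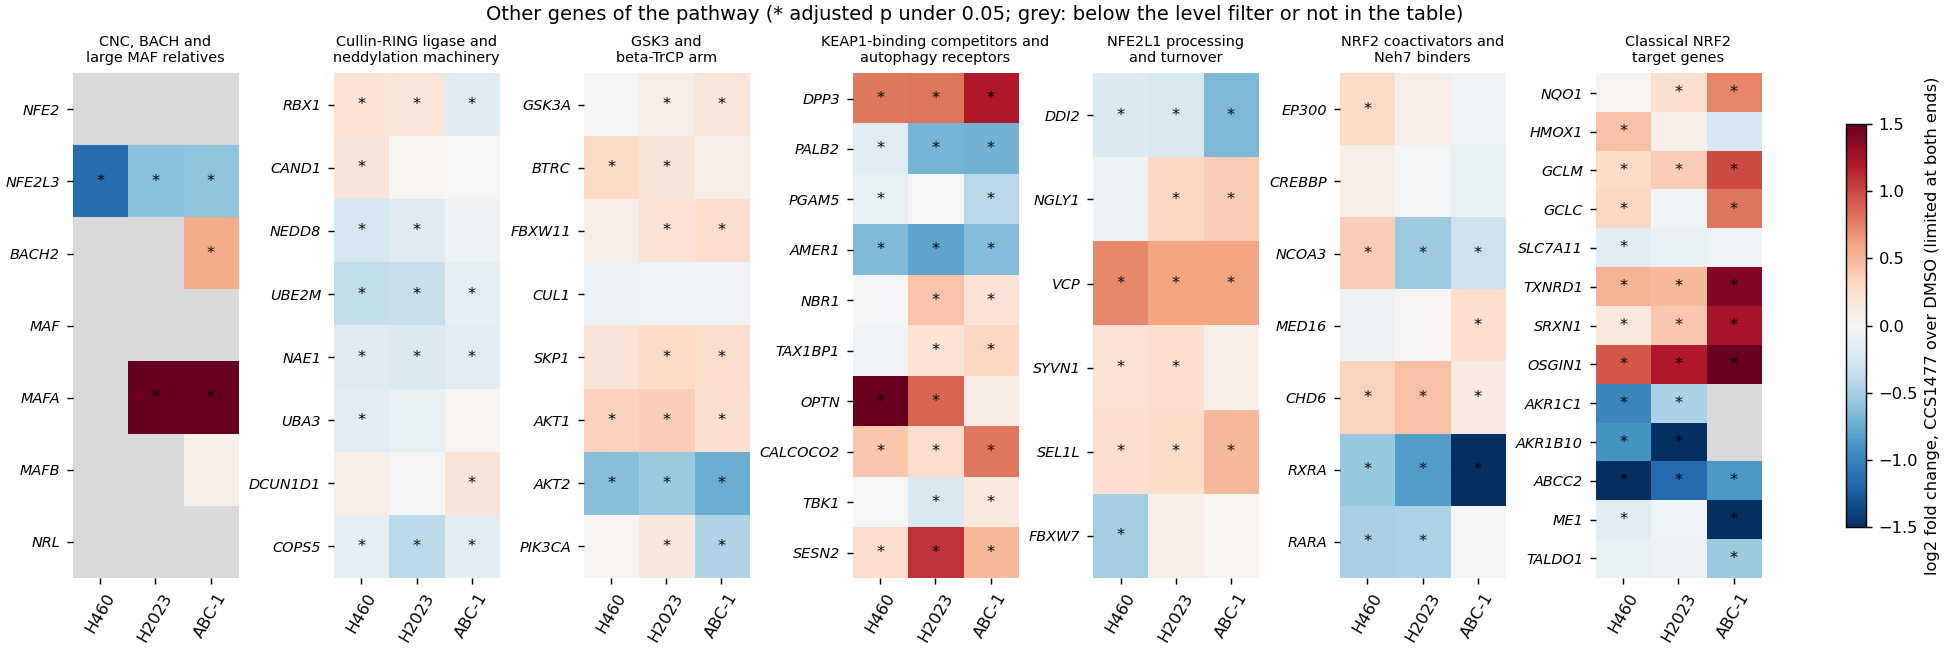
Log2 fold change of CCS1477 over DMSO (colour, with limits at both ends, red higher) for the 59 genes of the 7 pathway lists in H460, H2023 and ABC-1, with an asterisk for an adjusted p under 0.05 and grey where a gene was not tested. DPP3, VCP and AKT1 are red, and AMER1, AKT2 and RXRA blue, in all 3 lines.

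Likeness to NFE2L2 was measured as the distance between profiles of mean log2(CPM + 1) over the 6 groups, each centred on its own mean, among 6999 protein-coding genes. The nearest profiles were those of TATDN2 (distance 0.149), TBK1 (0.167) and RCE1 (0.177). These had 10 CPM or more in the mean of every group, which left out MAFF. Of the other 8 genes described here, NFE2L1 was nearest at 0.488 (rank 473), followed by CUL3 (rank 511) and KEAP1 (rank 1268), while SQSTM1 was at rank 6810. The 6 points are group means from 3 cell lines, and the distance describes these samples only.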

How the data were processed

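Per the labels, 18 total RNA samples (Sepasol extraction) went into directional MGI libraries, which a DNBSEQ instrument read as pairs. Each line has 1 table, whose name gave the line of its columns, since these are named alike. The authors deposited log2 values, in which the values themselves show whole reads times a unit per library plus a constant of 4; all values up to 1000 reads were whole within 0.1. The build is GRCh38, per the submitters' processing notes; the sources used here do not give aligner, counter or scaling.

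Gene rows were used (transcript rows hold 9.19 to 10.7% of reads), and CPM are shares of the recovered reads of all rows, counts per 1000000. At 1 CPM the counting error was 17.3 to 26.3%. The filter was 1 CPM or more in 3 or more of the 6 libraries. Log2 values as deposited entered limma-trend (limma 3.58.1, R 4.3.3), two-sided, with Benjamini-Hochberg adjustment over all genes of a line and a threshold of 0.05. Changes are on this log2 scale and its scaling, so ratios of CPM can differ from them, and the constant makes changes of low genes smaller. Differences between lines are contrasts of one 18-library fit. Lengths are from GENCODE 29. On simulated data the fits recovered 94, 95 and 84 of 100 genes changed by 0.5 in H460, H2023 and ABC-1, and 100 of 100 changed by 1. Those data had a fixed dispersion of 0.003, 200 changed genes per line at higher levels, and no library that stood apart. Recovery in the real libraries can therefore differ. The main fits used the log2 values because these are what was deposited. The recovered reads entered limma-voom as an alternative, and no other count model was run.

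All 10 genes were always named, with up to 3 genes per list and line of smallest p, and the 3 genes nearest to NFE2L2. The members and lists were chosen with earlier results of these data known, and 1 gene each of the GSK3 and beta-TrCP list and of the target list is not reported here. Alternatives were 2 other scalings, limma-voom, other filters, a constant of 1, a replicate block, transcript rows added, 1 fit over all lines and each library left out.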

Additional observations from a re-analysis of the deposited data

Results flagged for a closer look

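These values were singled out because the change with CCS1477 differed between lines in one limma fit over 18 libraries (Benjamini-Hochberg over 11757 genes). For H460 minus ABC-1 the differences in log2 change were -0.34 for NFE2L2, -0.56 for NFE2L1, -1.10 for MAFF, -0.20 for MAFG, -0.94 for MAFK, 0.25 for KEAP1, -0.76 for GSK3B and -0.89 for SQSTM1 (adjusted p = 1.62e-09 to 0.0423). For H2023 minus ABC-1 they were -0.57 for NFE2L2, -0.16 for NFE2L1, -1.49 for MAFF, -0.89 for MAFK, -0.41 for GSK3B and -0.21 for SQSTM1 (adjusted p = 9.57e-07 to 0.0227). For H460 minus H2023 they were 0.23 for NFE2L2, -0.40 for NFE2L1, -0.35 for GSK3B and -0.68 for SQSTM1 (adjusted p = 2.40e-07 to 0.0358).

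In treated against DMSO libraries, NFE2L2 and MAFK fell in H2023 and rose in ABC-1, and MAFK fell in H460 too. The other differences are of size within a shared direction, or involve a line in which the gene did not pass. Without CCS1477 replicate 1 of H460, the library low in mitochondrial reads, the H460 minus ABC-1 values were -0.30 for NFE2L2, -1.05 for MAFK, 0.17 for KEAP1 and -0.95 for SQSTM1, all still past the threshold.

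Some of these calls were lost when any 1 of several libraries was left out. MAFG for H460 minus ABC-1 did not pass without CCS1477 replicate 2 or 3 or DMSO replicate 2 or 3 of H460, nor without CCS1477 replicate 1 or 2 or DMSO replicate 2 or 3 of ABC-1 (adjusted p = 0.0564 to 0.108), and library totals (0.0600) and limma-voom (0.0766) ended it too. NFE2L2 for H460 minus H2023 did not pass without CCS1477 replicate 2 or 3 or DMSO replicate 1 or 2 of H460, nor without CCS1477 replicate 2 or 3 or DMSO replicate 2 or 3 of H2023 (0.0518 to 0.101). NFE2L1 for H2023 minus ABC-1 did not pass without CCS1477 replicate 3 or DMSO replicate 2 of H2023, nor without CCS1477 replicate 3 or DMSO replicate 1 of ABC-1 (0.0505 to 0.0662). CUL3 for H460 minus ABC-1 passed without CCS1477 replicate 1 of H460 (0.16, adjusted p = 0.0427). BACH1 for H2023 minus ABC-1 passed with library totals (adjusted p = 0.0420), with transcript rows added to genes (0.00659), and without CCS1477 replicate 1 (0.0423) or DMSO replicate 3 of H2023 (0.0270).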

How the results depend on the processing

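The counts of the 10 genes past the threshold stayed within 1.5 times at every setting run. With single libraries left out they were 2 to 4 in H460, 6 to 8 in H2023 and 8 to 9 in ABC-1. For the differences they were 7 to 9 for H460 minus ABC-1, 5 to 7 for H2023 minus ABC-1 and 3 to 4 for H460 minus H2023. Libraries were not treated as pairs by replicate number, since correlations of same-numbered deviations stayed below a threshold of 0.1. They were 0.0106 to 0.0973 in H460, 0.034 to 0.044 in H2023 and -0.1041 to -0.0433 in ABC-1. For unlike numbers they were -0.1002 to 0.0515, -0.0325 to -0.0059 and -0.0169 to 0.0953 in the same lines. Small correlations do not show that pairing was absent. In H2023 alone each library correlated best with its own number. With the replicate number as a block the counts were 2, 7 and 9 for H460, H2023 and ABC-1, and 7, 6 and 4 for the differences. The block ended the calls of KEAP1 in H460 (adjusted p = 0.0624) and of MAFG for H460 minus ABC-1 (adjusted p = 0.0537), and no other.

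Signs turned only for changes that did not pass. In H460 scaling by library totals gave 0.0201 for BACH1, 0.00883 for GSK3B and 0.0555 for MAFG. With single libraries left out the H460 changes were -0.113 to 0.00903 for GSK3B, -0.0661 to 0.0212 for MAFG and -0.0830 to 0.267 for MAFF. For H460 minus H2023 they were -0.0767 to 0.0301 for CUL3 and -0.154 to 0.0425 for MAFK. The cause was not tested. MAFF in H460 could not be tested with 1 CPM in all libraries. Depth limits MAFF most, at 25 to 50 reads in H460.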
